A study of Mus musculus with 4 samples.

Results

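The genes described here encode the nuclear subunits of the 5 respiratory chain complexes of mitochondria, with the complex I assembly factors that share their naming. They were taken by symbol: probe sets whose single gene symbol in the platform annotation starts with Nduf, Uqcr, Atp5, Cox4, Cox5, Cox6, Cox7 or Cox8, or is Sdha, Sdhb, Sdhc or Sdhd, with the probe set of highest mean standing for its gene. This rule used no measured difference between genotypes. It found 98 probe sets of 89 genes, out of 22180 genes named on the array. Complex I contributed 34 genes, the Ndufaf assembly factors 8, complex II 4, complex III 8, complex IV 17 and complex V, the ATP synthase, 18. A further 10 probe sets carry such a symbol beside another gene's symbol and were assigned to no gene, and some subunits of these complexes are not analysed here.

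RNA from mouse iNKT (invariant natural killer T) cells was hybridised to 4 Affymetrix whole-transcript arrays. These are T cells that carry a semi-invariant receptor and recognise lipid antigens on CD1d. In the CD4-Vα14Tg group, with 2 arrays, the cells came from mice with a transgene under the CD4 promoter, which is active in developing thymocytes and CD4+ T cells; Vα14 names the variable segment of the receptor α chain of iNKT cells. In the WT group, with 2 arrays, they came from wild-type controls, and the labels name no other allele or treatment in either group. The labels give neither organ, sorting gate, age nor sex, and the protocol speaks of RNA from frozen tissue. Nothing states that the arrays of a genotype came from separate animals, so p-values measure only the spread between these samples, which may be technical.

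The respiratory chain passes electrons from NADH (complex I) and succinate (complex II) through coenzyme Q, complex III and cytochrome c to oxygen at complex IV. Complexes I, III and IV pump protons as they do so, and complex V uses the gradient to make ATP. Most subunits are encoded in the nucleus, while a small core of complexes I, III, IV and V is encoded by mitochondrial DNA. T cells use this machinery in quiescence and memory, and raise its capacity when they are activated.

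Values are on the log2 scale, and every difference below is the CD4-Vα14Tg mean minus the WT mean, with n = 2 arrays per genotype. Array medians over all probe sets lay between 5.04 and 5.07, and genes entered the test if at least 2 of the 4 arrays reached the 40th percentile of named probe sets, a level of 4.65 to 4.69. Of the iNKT and T cell markers, 6 of 7 were measured, with array values from 9.86 to 12.5. Only Il2rb, a receptor chain for interleukin 2 and 15, passed the test, with a difference of -0.80 (limma adjusted p = 0.0427). The 6 did not share a direction: 4 had a negative difference, among them Cd3e with -0.31, and 2 a positive one. The positive ones were Zbtb16 with 0.23 and Thy1 with 0.24 (limma adjusted p = 0.567 and 0.600). Of 39 markers of other cell types, 34 were measured, 21 lay below the filter and 13 were tested. Of the 13, 1 passed, where 1.95% of all genes tested did. It was the myeloid integrin gene Itgam, with 5.42 and 5.44 in CD4-Vα14Tg against 4.84 and 4.69 in WT (limma adjusted p = 0.0438). Cd79b (difference 0.48), Pecam1 (0.48), Zbtb46 (-0.36) and Cd68 had an unadjusted limma p under 0.05 without passing. Of all genes tested, 11.7% had such a p. The macrophage and monocyte list was not uniform: its only other tested gene, Cd68, had 6.71 and 6.89 against 7.04 and 7.19, a difference of -0.32 (limma adjusted p = 0.401), and Csf1r, Lyz2 and Adgre1 lay below the filter. With any 1 of the 4 arrays left out, Il2rb (limma adjusted p from 0.0591 to 0.179) and Itgam (0.0842 to 0.206) no longer passed. The part of these markers in the results on the respiratory chain was not tested.

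Of the 89 genes, 81 passed the filter and 8 did not. The 8 were 6 alternative isoforms, Cox6b2, Cox7a1, Cox7b2, Cox8b, Cox8c and Ndufa4l2, and 2 pseudogenes, Atp5c1-ps and Uqcrh-ps1, with array values from 2.65 to 4.71. The tested genes had array values from 4.70 to 12.1. The level of a probe set depends on its own probes, so levels are compared below only between arrays.

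None of the 81 genes passed the test for a difference between genotypes. By limma with Benjamini-Hochberg adjustment over all 13602 genes tested, 0 were called at 0.05, where 1.95% of all genes tested were called (0.61% higher and 1.34% lower in CD4-Vα14Tg). The lowest adjusted p was 0.319, for Atp5d. At an unadjusted limma p under 0.05 there was 1 gene of 81, or 1.23%, against 11.7% of all genes tested. With the probe set of highest mean, no member reached a 1.5-fold difference, a size that 4.01% of all genes tested reached, and the largest fold was 1.28. A second, dimmer probe set of Atp5d, described below, differed 1.79-fold. In bulk RNA of this kind, fewer cells of a type and less RNA per cell cannot be told apart.

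The sizes of the differences can be read from their intervals. The 95% interval of the limma estimate lay within 1.5-fold in either direction for 75 of the 81 genes, or 92.6%, against 79.0% of all genes tested. The intervals reached a median of 0.30 to each side of the estimate, so a difference of 1.1-fold could not have been told from none. Estimates within 1.1-fold were found for 54 of the 81 genes, or 66.7%, against 58.3% of all genes. The median absolute difference was 0.087 for the members and 0.11 for all genes tested.

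**Figure D1:**
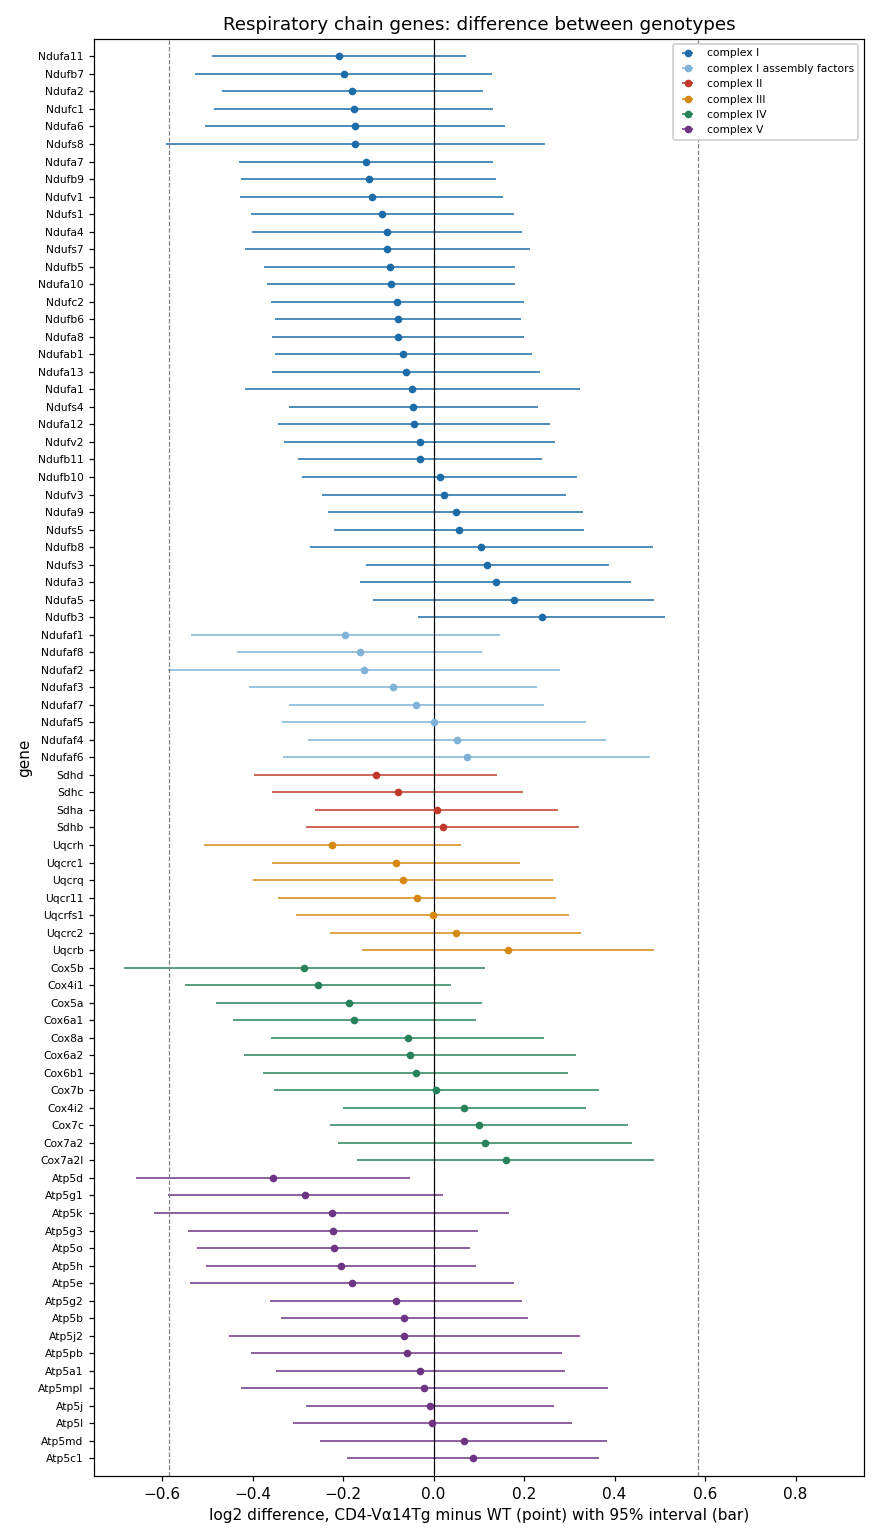
Difference between genotypes for each of the 81 tested genes, on the log2 scale, as CD4-Vα14Tg minus WT (point) with the 95% interval of the limma estimate (bar), coloured by complex and ordered by size within it; the dashed lines mark 1.5-fold. Every point lies between -0.36 (Atp5d) and 0.24 (Ndufb3), and the bar of Atp5d alone does not reach 0.

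More of the estimates were below 0 than above. Of the 81 genes, 58 had a negative difference, or 71.6%, against 55.9% of all genes tested, and 23 had a positive one. The median difference was -0.065, and that of all genes tested was -0.022. With 1 array left out at a time it ran from -0.10 to -0.033. Without the WT array of replicate 1 it was -0.041, close to the -0.034 of all genes, and without the CD4-Vα14Tg array of replicate 2 it was -0.033 against -0.023. Without the CD4-Vα14Tg array of replicate 1 it was -0.10 against -0.023, and without the WT array of replicate 2 it was -0.099 against -0.012. Both CD4-Vα14Tg arrays lay below both WT arrays for 24 genes, or 29.6%, where 23.4% of all genes tested did, and above both for 4 genes, or 4.94%, where 15.7% did. These counts describe the genes on the same 4 arrays, which the genes share, and were not tested as a set.

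**Figure D2:**
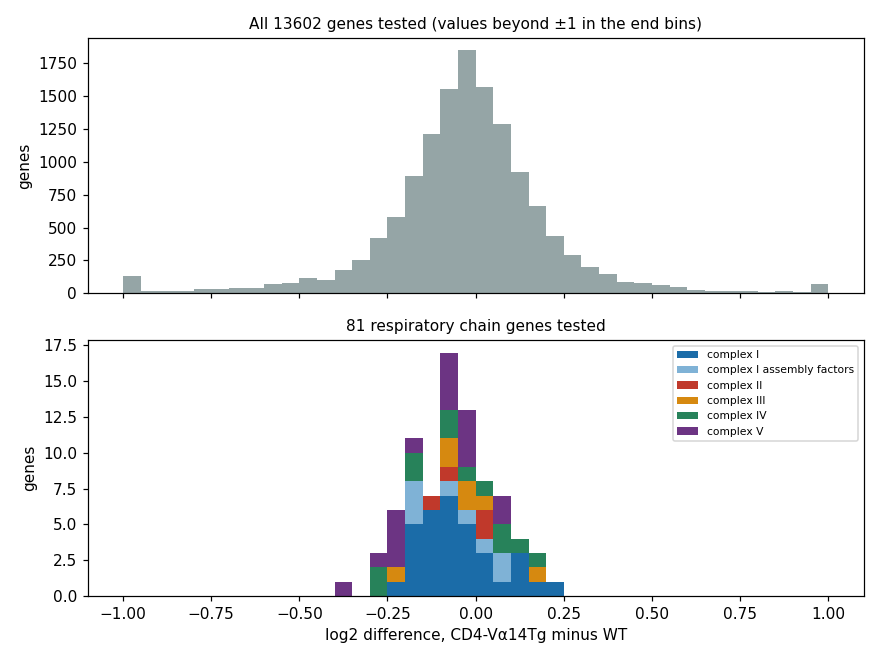
Number of genes (vertical axis) by log2 difference, CD4-Vα14Tg minus WT (horizontal axis), for all 13602 genes tested (top) and the 81 respiratory chain genes (bottom, stacked by complex); differences beyond 1 in size are counted in the end bars. The members lie close around their median of -0.065, and none reaches the outer bars that hold the strongly changed genes of the series.

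For most members, as for most genes tested, the replicate gap of at least 1 genotype was wider than the difference between genotypes. The gap between the replicate arrays of at least 1 genotype exceeded the difference between genotypes for 60 of 81 genes, or 74.1%, against 72.1% of all genes tested. Relative to each gene's mean over the 4 arrays, the median member lay at 0.0013 and -0.065 on the CD4-Vα14Tg arrays of replicates 1 and 2, and at 0.064 and 0.014 on the WT arrays of replicates 1 and 2. The WT array of replicate 1 was thus the high one and the CD4-Vα14Tg array of replicate 2 the low one, and the other two lay between them. With all arrays, 58 members had a negative difference. The count was 49 without the WT array of replicate 1 and also 49 without the CD4-Vα14Tg array of replicate 2. It was 56 without the CD4-Vα14Tg array of replicate 1 and 62 without the WT array of replicate 2.

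**Figure D3:**
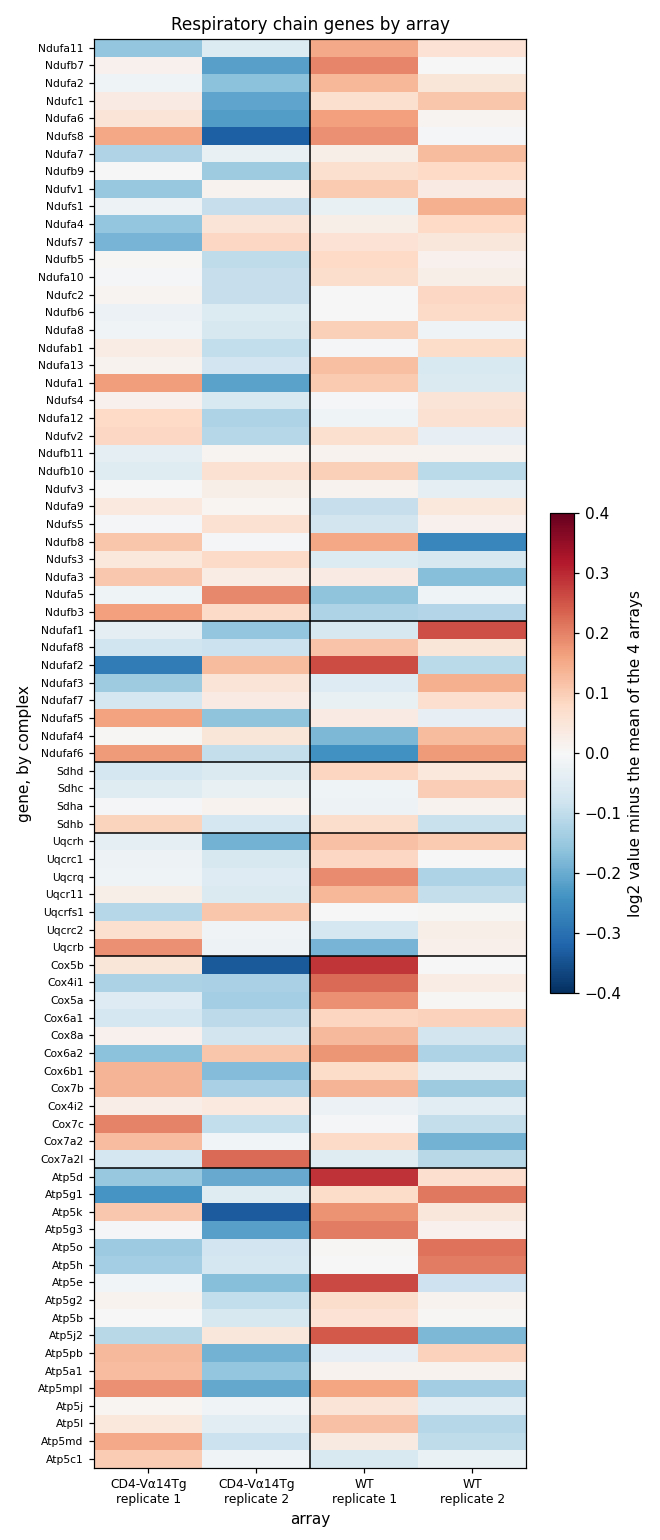
Each tested respiratory chain gene (row, grouped by complex from I at the top through the assembly factors, II, III and IV to V) on each of the 4 arrays (column); colour gives the log2 value minus the gene's mean over the 4 arrays. The WT column of replicate 1 is mostly red and the CD4-Vα14Tg column of replicate 2 mostly blue, with medians of 0.064 and -0.065.

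Promoters of 7 genes are printed to show the regulatory sequence in front of these genes, and the differences of the 7 are given with their complexes below. NRF1, the ETS factor GABP and YY1 are known regulators of nuclear genes for mitochondrial proteins. The RefSeq promoter table of assembly GRCm38.p6, with 250 bases before and 50 after each start, held 77 promoters of 72 of the 89 genes. Both strands were searched for the NRF1 motif of 10 bases, which the Sdha line below shows in capitals, with any base allowed after its GCGCA. The ETS motif was CCGGAAG, which reads CTTCCGG on the other strand. The YY1 motif was GCCATNTT, where N is any base. TATAAA stood for the TATA box. Matches of different motifs overlapped in 0 of the 77 promoters. The 120 bases before the start are given 5′ to 3′ on the gene's strand, in lower case with matches in capitals. Sdha is shown at chr13:74350241-74350360 on the minus strand and Sdhd at chr9:50603850-50603969 on the minus strand. Ndufa8 is shown at chr2:36049339-36049458 and Uqcrh at chr4:116075071-116075190, both on the minus strand. Cox6a1 is shown at chr5:115348959-115349078 on the minus strand, Cox7a1 at chr7:30184051-30184170 on the plus strand and Atp5d at chr10:80142155-80142274 on the plus strand.
Sdha: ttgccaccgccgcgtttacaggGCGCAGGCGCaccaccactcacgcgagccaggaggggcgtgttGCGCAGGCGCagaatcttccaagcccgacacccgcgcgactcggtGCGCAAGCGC
Sdhd: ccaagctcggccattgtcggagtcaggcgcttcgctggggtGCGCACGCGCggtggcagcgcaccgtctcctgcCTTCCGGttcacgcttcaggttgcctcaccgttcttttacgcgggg
Ndufa8: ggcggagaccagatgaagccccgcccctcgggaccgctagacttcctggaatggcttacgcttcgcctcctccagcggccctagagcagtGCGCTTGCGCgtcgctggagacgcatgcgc
Uqcrh: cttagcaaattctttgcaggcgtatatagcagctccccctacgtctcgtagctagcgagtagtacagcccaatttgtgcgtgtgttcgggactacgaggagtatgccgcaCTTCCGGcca
Cox6a1: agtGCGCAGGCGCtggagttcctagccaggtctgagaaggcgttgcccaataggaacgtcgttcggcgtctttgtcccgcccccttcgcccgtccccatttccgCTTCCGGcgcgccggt
Cox7a1: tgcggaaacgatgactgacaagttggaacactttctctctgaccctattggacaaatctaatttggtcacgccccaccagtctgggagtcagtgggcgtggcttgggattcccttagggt
Atp5d: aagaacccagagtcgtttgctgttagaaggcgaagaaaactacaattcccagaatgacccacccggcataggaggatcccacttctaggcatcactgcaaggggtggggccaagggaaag

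Sdha held 3 NRF1 matches, which begin 98, 55 and 10 bases before the start. Sdhd held an NRF1 match 79 and an ETS match 46 bases before the start. Cox6a1 held an NRF1 match 117 and an ETS match 16 bases before it, and a further NRF1 match beyond the printed window. Ndufa8 held 1 NRF1 match and Uqcrh 1 ETS match. The promoters of Cox7a1, the muscle isoform, and of Atp5d held none of the 4 motifs, which says only that these letters are not in the window.

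NRF1 matches were found in 18 of the 77 promoters, or 23.4%, against 4.6% of all 32851 promoters and 8.94% of the 13263 promoters of genes tested. ETS matches were found in 19, or 24.7%, against 8.86% of all promoters and 15.8% of those of genes tested. YY1 matches were found in 18, or 23.4%, against 6.05% and 7.59%. TATAAA was found in 9, or 11.7%, against 13.6% and 7.99%. NRF1 or ETS letters were present in 33 promoters, or 42.9%, against 12.6% of all promoters and 22.9% of those of genes tested. By complex, all 3 matched promoters of complex II held NRF1 or ETS letters, as did 10 of 18 of complex V, 3 of 4 of complex III, 10 of 32 of complex I, 4 of 7 of the assembly factors and 3 of 13 of complex IV. YY1 letters were found in 11 of the 32 complex I promoters, or 34.4%. A match of letters is not a measured binding site, and no binding was measured here.

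**Figure D4:**
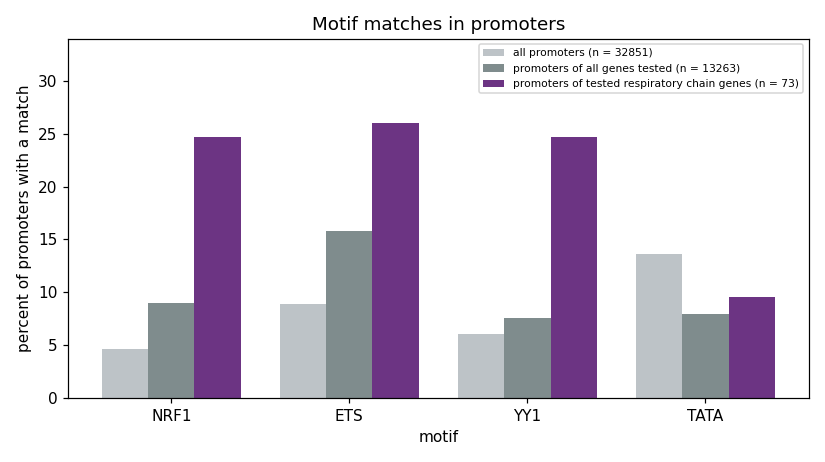
Percent of RefSeq promoters (vertical axis) that hold a match to each motif (horizontal axis) among all 32851 promoters, the 13263 promoters of genes tested and the 73 promoters of tested respiratory chain genes. The respiratory chain bars stand at 24.7% for NRF1, 26% for ETS, 24.7% for YY1 and 9.59% for TATA.

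Complex I is the entry point for electrons from NADH and the largest complex of the chain. Of its 33 tested genes, 24 had a negative and 9 a positive difference, with a median of -0.079, and 0 passed the test (lowest limma adjusted p 0.512). CD4-Vα14Tg arrays lay below both WT arrays for 10 of the 33 and above both for 2, where 23.4% and 15.7% of all genes tested did. Differences ran from -0.21 for Ndufa11 to 0.24 for Ndufb3.

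The core subunits carry the flavin and the iron-sulfur clusters that pass electrons inward, apart from Ndufs3, which holds neither. Of the 6 measured, 5 had a negative difference, and the median was -0.11. Ndufs1, the largest iron-sulfur subunit, measured 7.84 and 7.77 in CD4-Vα14Tg against 7.84 and 8.01 in WT, a difference of -0.11. Ndufv1, which binds the flavin and NADH, measured 7.53 and 7.69 against 7.78 and 7.71, a difference of -0.14 with arrays that did not overlap. Ndufv2, its iron-sulfur partner, had a difference of -0.031. Ndufs7 and Ndufs8, which hold the last clusters before coenzyme Q, had differences of -0.10 and -0.17. For Ndufs8 the CD4-Vα14Tg arrays themselves were far apart, at 9.164 and 8.682, with WT arrays of 9.191 and 9.001. Ndufs3, next to them in the peripheral arm, was the exception: it measured 6.76 and 6.79 in CD4-Vα14Tg and 6.66 and 6.65 in WT, a difference of 0.12 with no overlap (limma adjusted p = 0.825).

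The 27 accessory subunits surround this core, and 19 of them had a negative difference, with a median of -0.067. Ndufb3, a membrane-arm subunit, had the most positive difference of all members. It measured 6.02 and 5.93 in CD4-Vα14Tg against 5.74 and 5.74 in WT, and 5.98 ± 0.061 against 5.74 ± 0.0042 (mean ± SD) gave a difference of 0.24 (95% interval -0.034 to 0.51, limma adjusted p = 0.512). Ndufa11, a membrane-arm subunit, measured 8.44 and 8.54 in CD4-Vα14Tg against 8.75 and 8.65 in WT (limma adjusted p = 0.609). Ndufa2, a subunit of the matrix arm, measured 8.22 and 8.07 against 8.37 and 8.28, a difference of -0.18 (limma adjusted p = 0.692). In both Ndufa11 and Ndufa2 the arrays of the genotypes did not overlap. Ndufab1, the mitochondrial acyl carrier protein, had a difference of -0.067 with overlapping arrays. Ndufa13, also known as a cell-death regulator, had a difference of -0.061, and Ndufs4, often deleted in models of complex I deficiency, one of -0.045. Ndufa4, which kept its complex I name but is now placed with complex IV, measured 9.68 and 9.89 in CD4-Vα14Tg against 9.86 and 9.92 in WT, a difference of -0.10. Its relative Ndufa4l2, which is known as a hypoxia-induced gene, lay below the filter on all arrays, between 3.93 and 4.16.

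The 8 Ndufaf genes encode factors that build complex I and leave it. Of these, 5 had a negative and 3 a positive difference, with a median of -0.064, and 0 passed the test (lowest limma adjusted p 0.709). That median was -0.12 without the WT array of replicate 1 and -0.012 without that of replicate 2. Ndufaf8 measured 7.20 and 7.19 in CD4-Vα14Tg against 7.39 and 7.33 in WT, a difference of -0.16. Its CD4-Vα14Tg arrays lay below both WT arrays, and those of the other Ndufaf genes overlapped. Of all genes tested, 23.4% lay lower and 15.7% higher without overlap, so this does not set Ndufaf8 apart. Ndufaf1, of the membrane-arm assembly intermediate, measured 6.43 and 6.31 against 6.40 and 6.73, a difference of -0.20 that rests on the high WT array of replicate 2, without which it was -0.034. Ndufaf2 measured 5.30 and 5.71 against 5.84 and 5.47, so its replicate gaps were larger than its difference of -0.15. Ndufaf5 had a difference of 0.0010.

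Complex II, succinate dehydrogenase, links the citric acid cycle to the chain, pumps no protons and is built from nuclear genes alone. Its 4 subunits had differences from -0.13 to 0.020, with a median of -0.036, and 0 passed the test (lowest limma adjusted p 0.801). Sdha, the flavoprotein that oxidises succinate, measured 9.60 and 9.62 in CD4-Vα14Tg against 9.59 and 9.62 in WT. Its difference was 0.0070, with a 95% interval from -0.26 to 0.28. Sdhb, the iron-sulfur subunit, measured 8.01 and 7.86 against 7.99 and 7.84, a difference of 0.020, with the same gap between replicates in both genotypes.

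The estimates for the 2 membrane anchors of complex II, which bind coenzyme Q, were negative, and neither passed the test. Sdhc measured 7.357 and 7.375 in CD4-Vα14Tg against 7.387 and 7.504 in WT, a difference of -0.080. Sdhd measured 8.14 and 8.15 against 8.30 and 8.25, a difference of -0.13 (95% interval -0.40 to 0.14, limma adjusted p = 0.801). In both, the CD4-Vα14Tg arrays lay below both WT arrays, as they did for 23.4% of all genes tested. Sdha and Sdhd both have NRF1 letters in the promoters printed above.

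Complex III, the cytochrome bc1 complex, moves electrons from coenzyme Q to cytochrome c. Of its 7 tested genes, 5 had a negative and 2 a positive difference, and 0 passed the test (lowest limma adjusted p 0.583). The median was -0.037, which turned to 0.0020 without the WT array of replicate 1 and was -0.13 without that of replicate 2. Uqcrfs1, the Rieske iron-sulfur protein, measured 6.51 and 6.74 in CD4-Vα14Tg against 6.63 and 6.63 in WT, a difference of -0.0025. The core proteins Uqcrc1 and Uqcrc2 had differences of -0.083 and 0.048.

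The extremes of complex III were small accessory subunits. Uqcrh, the hinge protein at the cytochrome c site, measured 8.39 and 8.24 in CD4-Vα14Tg against 8.54 and 8.53 in WT, a difference of -0.22 without overlap (95% interval -0.51 to 0.060, limma adjusted p = 0.583). Uqcrb measured 10.3 and 10.1 against 9.92 and 10.1, a difference of 0.16 with overlapping arrays (limma adjusted p = 0.776). Uqcrq and Uqcr11 had differences of -0.068 and -0.037. The pseudogene Uqcrh-ps1 lay below the filter, between 2.90 and 3.30.

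Complex IV, cytochrome c oxidase, reduces oxygen to water, and several of its nuclear subunits exist as a common form and a form of muscle, lung or testis. Of its 12 tested genes, 7 had a negative and 5 a positive difference, with a median of -0.046, and 0 passed the test (lowest limma adjusted p 0.512). The sign of this median was not stable: it was 0.0035 after quantile normalization of the values once more and 0.062 without the WT array of replicate 1. Without the WT array of replicate 2 it was -0.15. Among the 9 common subunits, 6 were negative and the median was -0.058.

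The most negative differences in complex IV were those of Cox5b, its zinc-binding subunit, and of Cox4i1 and Cox5a, early building blocks of the complex. Cox4i1 measured 8.76 and 8.76 in CD4-Vα14Tg against 9.11 and 8.92 in WT, and 8.76 ± 0.0021 against 9.01 ± 0.14 (mean ± SD) gave a difference of -0.26 (95% interval -0.55 to 0.038, limma adjusted p = 0.512). Cox5a had a difference of -0.19 without overlap (limma adjusted p = 0.682). Cox5b measured 9.45 and 9.06 against 9.68 and 9.40, a difference of -0.29 with overlapping arrays (limma adjusted p = 0.629), and a gap between the CD4-Vα14Tg arrays wider than that difference. Cox6a1 measured 11.9 and 11.9 against 12.1 and 12.1, a difference of -0.18 without overlap (limma adjusted p = 0.669).

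The other common subunits lay closer to 0. Cox6b1, Cox7b and Cox8a had differences of -0.040, 0.0060 and -0.058, and Cox7c and Cox7a2 had positive ones of 0.10 and 0.11. In 9 of 9 common subunits the CD4-Vα14Tg array of replicate 1 was higher than that of replicate 2, and in 8 of 9 the WT array of replicate 1 was higher than that of replicate 2. Over all genes tested these shares were 48.5% and 44.0%. The median gap between replicates was 0.13 in CD4-Vα14Tg and 0.20 in WT, both larger than the median difference between genotypes. Cox7a2l, a factor for joining complexes III and IV into supercomplexes, measured 8.11 and 8.40 in CD4-Vα14Tg against 8.13 and 8.06 in WT, a difference of 0.16 that rests on the CD4-Vα14Tg array of replicate 2, without which it was 0.011.

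The isoforms of other tissues were near or below the filter in both genotypes. Cox4i2, the lung isoform, measured 4.91 and 4.92 in CD4-Vα14Tg against 4.86 and 4.84 in WT, and Cox6a2, the heart and muscle isoform, measured 5.24 and 5.52 against 5.58 and 5.28. Neither passed the test, with limma adjusted p = 0.930 and 0.969. The muscle isoform Cox7a1 lay below the filter on all arrays, between 4.49 and 4.63, and so did Cox8b, between 3.57 and 3.80. The testis isoforms Cox6b2, Cox7b2 and Cox8c had array values from 4.39 to 4.71, 2.65 to 2.96 and 3.81 to 4.11. A low value here is a dim probe set, which cannot be told from no expression.

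Complex V, the ATP synthase, has a catalytic F1 head, a membrane c-ring and a stalk that holds them together. By sign it had the most one-sided estimates: 15 of its 17 tested genes had a negative difference and 2 a positive one. The negative share was 88.2%, beside 71.6% of all members and 55.9% of all genes tested. Its median of -0.065 was that of all members, and complex I had one of -0.079. With the probe sets of highest mean, 0 passed the test (lowest limma adjusted p 0.319). CD4-Vα14Tg arrays lay below both WT arrays for 6 of the 17 and above both for 1, beside 23.4% and 15.7% of all genes tested. The median was -0.17 without the CD4-Vα14Tg array of replicate 1 and -0.028 without that of replicate 2.

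In the F1 head, Atp5a1 and Atp5b form the catalytic hexamer, and Atp5c1, Atp5d and Atp5e the central stalk that turns in it. Atp5a1 measured 10.6 and 10.4 in CD4-Vα14Tg against 10.5 and 10.5 in WT, a difference of -0.030. Atp5b measured 11.3 and 11.2 against 11.3 and 11.3, a difference of -0.065. Atp5c1 measured 7.23 and 7.12 against 7.07 and 7.11, a difference of 0.087 and the only positive one of the 5. None of these 3 differences was distinguishable from 0, with limma adjusted p = 0.983, 0.935 and 0.904.

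Atp5d, the δ subunit of the central stalk, had the most negative difference of all 81 tested genes. It measured 7.89 and 7.84 in CD4-Vα14Tg against 8.33 and 8.11 in WT. The means of 7.86 ± 0.035 and 8.22 ± 0.16 (mean ± SD) differed by -0.355, a 1.28-fold lower level (95% interval -0.66 to -0.052, unadjusted limma p under 0.05, limma adjusted p = 0.319). The CD4-Vα14Tg arrays lay close together below both WT arrays. Over the alternative settings the difference stayed between -0.60 and -0.24. Atp5e, the ε subunit beside it, measured 8.28 and 8.12 against 8.55 and 8.20, a difference of -0.18 with overlapping arrays (limma adjusted p = 0.782).

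The c-ring is made of 1 protein encoded by 3 genes, and all 3 had negative differences. Atp5g1 measured 5.97 and 6.16 in CD4-Vα14Tg against 6.28 and 6.42 in WT, a difference of -0.28 (95% interval -0.59 to 0.020, limma adjusted p = 0.472). Atp5g3 measured 8.75 and 8.54 against 8.96 and 8.77, a difference of -0.22 (limma adjusted p = 0.643). Both had CD4-Vα14Tg arrays below both WT arrays, as 23.4% of all genes tested did. The arrays of Atp5g2 overlapped, with a difference of -0.084. In the peripheral stalk, Atp5o, which encodes the oligomycin-sensitivity-conferring protein, measured 5.75 and 5.81 against 5.89 and 6.11, a difference of -0.22 (limma adjusted p = 0.617). Atp5h measured 10.7 and 10.8 against 10.9 and 11.1, a difference of -0.20. Atp5pb and Atp5j completed the stalk with -0.060 and -0.0090. Of the 5 small membrane subunits, 4 were negative, from -0.23 for Atp5k to 0.066 for Atp5md. The pseudogene Atp5c1-ps lay below the filter, at 3.15 and 3.06 in CD4-Vα14Tg against 3.51 and 3.66 in WT.

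The call on Atp5d depended on which of its probe sets was read. Of the 89 genes, 9 had 2 probe sets with their symbol alone. The dimmer probe set of Atp5d measured 7.01 and 7.26 in CD4-Vα14Tg against 7.98 and 7.98 in WT. Its means of 7.13 ± 0.18 and 7.98 ± 0.0014 (mean ± SD) differed by -0.84, a 1.79-fold lower level with a 95% interval from -1.15 to -0.53. In a fit with every probe set as its own feature, an alternative added after the values were seen, this was the 1 of 88 tested member probe sets that fell past the threshold (limma adjusted p = 0.0195). In that fit 2.88% of 14351 probe sets were called, 1.71% lower and 1.16% higher in CD4-Vα14Tg.

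The 2 probe sets of Atp5d agreed in sign and differed in size. Their mean differed by -0.60 between genotypes (limma adjusted p = 0.0608). With 1 array left out at a time, the dimmer probe set kept a difference between -0.97 and -0.72, with limma adjusted p from 0.0289 to 0.0933, and it passed the threshold in 1 of the 4 fits, that without the CD4-Vα14Tg array of replicate 2. The position of each probe set on the gene is not used here.

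The other pairs of probe sets gave no further call. Ndufa8, an accessory subunit of complex I, measured 9.22 and 9.17 in CD4-Vα14Tg against 9.33 and 9.21 in WT with its brighter probe set, a difference of -0.079. With its dimmer probe set it measured 6.91 and 6.89 against 7.42 and 7.40, a difference of -0.51 or 1.42-fold (limma adjusted p = 0.0777 in the fit of every probe set). The arrays of the dimmer probe set stood in 2 tight pairs, while those of the brighter one overlapped. The dimmer probe set of Atp5e measured 6.88 and 6.57 against 7.18 and 7.06, a difference of -0.40 (limma adjusted p = 0.290). Of the 9 genes, 6 had the same sign with both probe sets and 3, Atp5h, Cox5b and Ndufa11, had opposite signs. The dimmer probe set showed the larger difference in 5 of 9, and in Cox5b and Cox7b it lay below the filter. The 10 probe sets shared with another gene's symbol were not tested. Of these, 6 had a negative and 4 a positive difference, from -0.15 to 0.45 (Cox6c with Gm6265). Those that carry the symbols of Ndufs1 (0.33), Ndufs5 (-0.14) and Uqcrb (-0.15) had the opposite sign to the gene's own probe set.

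**Figure D5:**
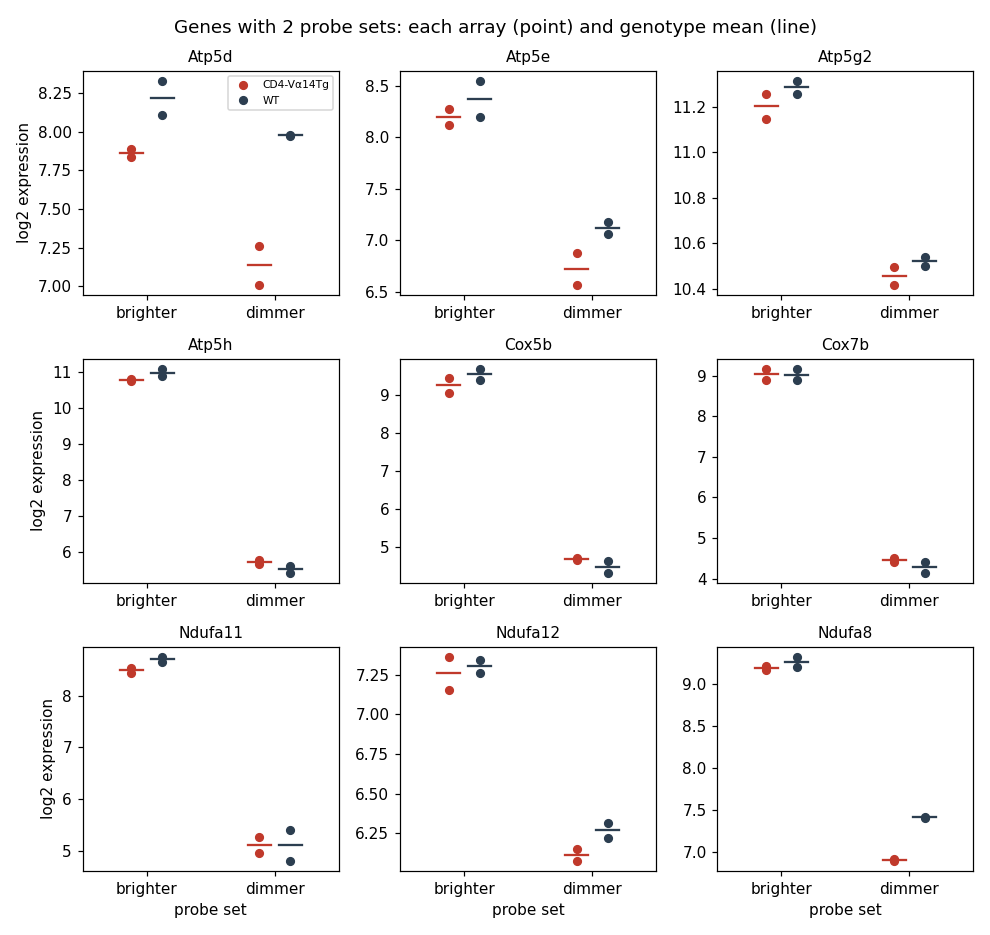
Log2 expression (vertical axis, own range in each panel) of the 9 genes with 2 probe sets, by probe set (horizontal axis) and genotype; points are arrays and lines are means of 2 arrays. For Atp5d and Ndufa8 the genotypes lie further apart with the dimmer probe set (differences of -0.84 and -0.51) than with the brighter one (-0.36 and -0.079).

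Other genes of the pathway were counted in the same fit, from lists by function. The shares over all genes tested, to be read beside each list, were 1.95% called, 11.7% at an unadjusted limma p under 0.05 and 55.9% negative. In lists this short, 0 called is near the first of these shares. The mitochondrial DNA encodes the subunits around which the nuclear ones assemble. Of 13 such genes, 10 were tested and 0 were called, also at an unadjusted limma p under 0.05, with a median of 0.0058 and 2 negative differences. In 9 of the 10 the differences lay between -0.064 and 0.059, at array values from 12.5 to 13.6, which is 0.13 to 1.25 below the highest value of their array. COX1, the catalytic subunit of complex IV, measured 13.56 and 13.56 in CD4-Vα14Tg against 13.51 and 13.49 in WT. ND6, the only protein gene on the light strand of mitochondrial DNA, stood apart with 11.05 and 10.65 against 11.25 and 11.09, a difference of -0.32 (limma adjusted p = 0.527). Values this close to the top of the range can understate differences.

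Among electron carriers and coenzyme Q synthesis, 17 of 18 genes were tested, 0 were called, 0 had an unadjusted limma p under 0.05, and 13 were negative with a median of -0.12. Coq5, a methyltransferase of coenzyme Q synthesis, measured 7.91 and 8.08 in CD4-Vα14Tg against 8.15 and 8.41 in WT, a difference of -0.29 (limma adjusted p = 0.514). Cyc1, the cytochrome c1 of complex III, measured 7.44 and 7.56 against 7.76 and 7.59, a difference of -0.18 (limma adjusted p = 0.708). Among assembly factors with other names, 38 of 43 genes were tested, 0 were called, 0 had an unadjusted limma p under 0.05, and 27 were negative with a median of -0.044. Foxred1, a complex I assembly factor, had a difference of -0.25 and Sco1, which delivers copper to complex IV, one of -0.27, both without overlap (limma adjusted p = 0.494 and 0.502).

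Regulators of mitochondrial biogenesis were spread around 0. Of 20 listed, 17 were tested, 0 were called, 0 had an unadjusted limma p under 0.05, and 8 were negative with a median of 0.0050. Nrf1, the factor of the NRF1 motif, and Gabpa, the ETS subunit of GABP, had differences of 0.044 and 0.0050, and Yy1 had one of 0.025. Ppargc1b, a coactivator of these factors, measured 5.48 and 5.81 in CD4-Vα14Tg against 5.93 and 5.94 in WT, a difference of -0.29 (limma adjusted p = 0.522). Its relative Ppargc1a lay below the filter, between 3.40 and 3.59. Twnk, the mitochondrial DNA helicase, measured 5.86 and 5.88 against 6.09 and 6.08, a difference of -0.22 (limma adjusted p = 0.565).

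Genes for ATP export, channels and uncoupling gave 7 tested of 9, 0 called, 0 at an unadjusted limma p under 0.05 and a median of -0.018. Slc25a3, which imports the phosphate that complex V uses, measured 9.16 and 9.12 in CD4-Vα14Tg against 9.30 and 9.28 in WT, a difference of -0.15 (limma adjusted p = 0.739). Vdac3, an outer membrane channel, had a difference of -0.11. Mitochondrial redox defence gave 11 tested of 12, 0 called, 1 at an unadjusted limma p under 0.05, and 8 negative with a median of -0.036. That gene was Txnrd2, the mitochondrial thioredoxin reductase, with 6.16 and 6.13 against 6.63 and 6.38 and a difference of -0.36 (limma adjusted p = 0.322). Sod2, the superoxide dismutase of the matrix, measured 8.612 and 8.504 against 8.804 and 8.860, a difference of -0.27 (limma adjusted p = 0.437).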

How the data were processed

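The authors deposited log2 values for each probe set on each array. RMA and Affymetrix Power Tools are named in the submitters' processing notes. RMA corrects background, sets arrays to 1 distribution and summarises probes, so a shift in total RNA per cell cannot be seen. No source used here gives versions, options or the build behind them. Of 41345 probe sets, 23521 had 1 symbol in the platform annotation, 1814 several and 16010 none, and only those with 1 were named.

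From these values, 1 probe set per gene (highest mean) was kept, and 13602 of 22180 genes passed the filter. CD4-Vα14Tg was compared with WT in limma 3.58.1 (R 4.3.3; lmFit and eBayes, two-sided) with Benjamini-Hochberg adjustment over all genes tested and a threshold of 0.05. The code was tested on simulated data. The precision is limited by 2 arrays per genotype. Members and gene lists were chosen with earlier results of these data known. Genes were named by this rule: members past the threshold, the 3 with the largest moderated t per complex, the core subunits and isoform pairs, and in each other list the 2 with the largest moderated t; a few others are named for their known role. Alternatives were other filters, the mean of probe sets, quantile normalization again, median centring, trend and robust options, the replicate number as a block and leaving out each array.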

Additional observations from a re-analysis of the deposited data

How the results depend on the processing

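The count of 0 called respiratory chain genes was also found with no filter, a 60th percentile filter, the mean of probe sets, quantile normalization again, median centring, trend and robust options, the replicate block and each array left out, and the same held for the other pathway lists. It became 1, the dimmer probe set of Atp5d, in the fit of every probe set, which was chosen after seeing the data. Over these settings the lowest limma adjusted p of a member gene ran from 0.0608 (mean of probe sets) to 0.518 (without the WT array of replicate 1). Of all genes, 265 were called, 413 with every probe set as a feature and 166 to 221 with 1 array left out. With the mean of probe sets, 1 member, Atp5d, reached a 1.5-fold difference. The median difference of complex II was -0.0098 after quantile normalization again. With 1 array left out, the medians ran from -0.10 to -0.033 for all members, -0.10 to -0.037 for complex I, -0.12 to -0.012 for the assembly factors, -0.065 to -0.040 for complex II, -0.13 to 0.0020 for complex III, -0.15 to 0.062 for complex IV and -0.17 to -0.028 for complex V. The sign of the difference was kept under every alternative run for 28 of 42 named members and was turned or became 0 in at least 1 for 14. The cause was not tested. Arrays of the same replicate number deviated together with a correlation of 0.262 over 13602 genes. Only 2 pairs exist and the labels give no more than the number, so what the arrays of a pair share was not tested. The main fit did not use the replicate number. The replicate block gave 674 calls over all genes and 0 among the members (lowest limma adjusted p 0.165).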
